A study of Rattus norvegicus with 19 samples.

Results

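The enzymes and carriers that take fatty acids into the heart and oxidize them were followed at the RNA level in rat hearts with and without heart failure with preserved ejection fraction (HFpEF). The 35 genes were listed by symbol, and all 35 of them were among the 17455 genes of the count data and among the 12388 genes that passed the expression filter of the test. They were arranged by step: 4 genes of uptake and binding, 6 of activation, 5 of the carnitine shuttle and its malonyl-CoA control, 10 of the mitochondrial β-oxidation spiral, 4 auxiliary enzymes for unsaturated chains, 3 of electron transfer and 3 peroxisomal genes.

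All animals were Sprague–Dawley rats, 24 weeks of age by the sample record, wild type by label. HFpEF was induced over 5 weeks with a high-fat diet, 60% of its kilocalories from fat, and with 0.5 g/L of L-NAME, which blocks nitric oxide synthesis, in the water, while control rats had normal chow and water without L-NAME. Hearts of control 5w and HFpEF were taken at week 5. HFpEF rats then received for 4 weeks by gavage either phosphate-buffered saline (untreated), empagliflozin (EMPA, an SGLT2 inhibitor) at 0.35 g/kg/d, pirfenidone (PFD, an antifibrotic drug) at 0.3 g/kg/d, or both (EMPA + PFD), and these hearts and those of control 9w were taken at week 9. L-NAME and the high-fat diet are recorded for the untreated and drug groups too, and the paper speaks of 9 weeks of HFpEF induction. RNA-seq of the left ventricle gave 19 libraries, numbered as biological replicates, of which EMPA and PFD have 2 each and each other group has 3.

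As background, the adult heart draws most of its energy from long-chain fatty acids. Lipoprotein lipase frees them at the capillary wall, CD36 and transport proteins carry them into the cardiomyocyte, and acyl-CoA synthetases trap them as CoA esters. The carnitine shuttle, gated by malonyl-CoA, moves these esters into the mitochondrion, where a spiral of 4 reactions shortens the chain and passes electrons through electron transfer flavoprotein to the respiratory chain. Very long and branched chains begin in peroxisomes.

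Depth, as the sum of the counts of a library, lay between 7430539 and 13017754 (median 9951011). It ran from 11628931 to 13017754 in control 5w and from 7803050 to 9409670 in control 9w, and was 7430539 and 8061054 in EMPA. At this depth the lowest counts were those of Acsl6, with 33 to 469 per library, Ehhadh, with 35 to 396, and Echs1, with 43 to 388, and counting error weighs most on these. Levels are given as CPM, counts scaled by the TMM-adjusted total of the library, in the order of the replicate numbers. They are not corrected for transcript length, so levels are compared between libraries and not between genes. Groups were compared with the quasi-likelihood F test of edgeR in 1 model of all libraries, and p-values were adjusted by Benjamini-Hochberg over the 12388 tested genes. A gene is called, and said to have risen or fallen, at an adjusted p under 0.05, and fold changes are on the log2 scale with their standard error (SE).

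Some libraries went against their labels or stood apart. Every library is labelled male, and the paper states that male hearts were sequenced, while the protocol names rats of both sexes in each group. The Y-linked gene Eif2s3y had 0 counts in HFpEF replicates 1 and 3, in all 3 untreated libraries and in both PFD libraries, against 613 to 1321 counts in the other 12. Eif2s3y therefore split untreated and PFD from control 9w, EMPA and EMPA + PFD, and in comparisons across that split sex-linked differences and treatment or disease cannot be told apart. HFpEF held libraries of both kinds. The comparisons that do not cross the split were EMPA + PFD against control 9w, EMPA + PFD against EMPA, PFD against untreated and control 9w against control 5w. RT1-CE16, a gene of the rat major histocompatibility complex, had at most 3 counts in every library of control 5w, HFpEF and EMPA and 308 to 922 in the others, so that what RT1-CE16 marks cannot be told apart from the week in the controls or from EMPA alone.

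The mean log2 CPM over the 35 genes, as a description of each library, was 8.20, 7.03 and 7.20 in control 5w, 6.33, 7.06 and 7.47 in HFpEF and 7.38, 7.50 and 7.28 in control 9w. It was 8.45, 6.55 and 8.16 in untreated, 8.16 and 7.67 in EMPA, 8.34 and 8.52 in PFD and 8.63, 9.01 and 8.94 in EMPA + PFD. The 3 EMPA + PFD libraries lay above the libraries of the other 6 groups, and the control 9w libraries lay close together. Untreated replicate 2 was far below the other untreated libraries and was the lowest of the 3 for 32 of the 35 genes. Control 5w replicate 1 was the highest of its group for 32 genes, and HFpEF replicate 1 was the lowest of its group for 32.

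Markers of heart cells moved with these levels. The summed level of 19 cardiomyocyte markers, with Myh6 the most abundant and none at 0, was 134524, 65822 and 72666 CPM in control 5w, 22998, 36279 and 60128 in HFpEF and 59566, 68576 and 64312 in control 9w. It was 110784, 30950.2 and 100706 CPM in untreated, 83387 and 69253 in EMPA, 111204 and 117975 in PFD and 130572, 157738 and 125079.9 in EMPA + PFD. Untreated replicate 2 and HFpEF replicate 1 were again the lowest of their groups and control 5w replicate 1 the highest of its own. In whole-tissue RNA, fewer cardiomyocytes and less RNA of a gene per cardiomyocyte cannot be told apart. The difference between the mean log2 CPM of the 35 genes and that of the cardiomyocyte markers was −3.42, −3.51 and −3.59 in control 9w and −3.14, −3.10 and −2.82 in EMPA + PFD, and these ranges did not overlap. For untreated it was −3.09, −3.20 and −3.27, so that replicate 2 did not stand apart on this measure. It was −3.55, −3.80 and −3.81 in control 5w and −3.11, −2.96 and −3.33 in HFpEF, higher in every HFpEF library than in any control 5w library. In EMPA it was −3.09 and −3.33 and in PFD −3.31 and −3.10. Every untreated, EMPA and PFD library was thus also above every control 9w library. The EMPA + PFD range overlapped those of untreated, EMPA and PFD.

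**Figure D1:**
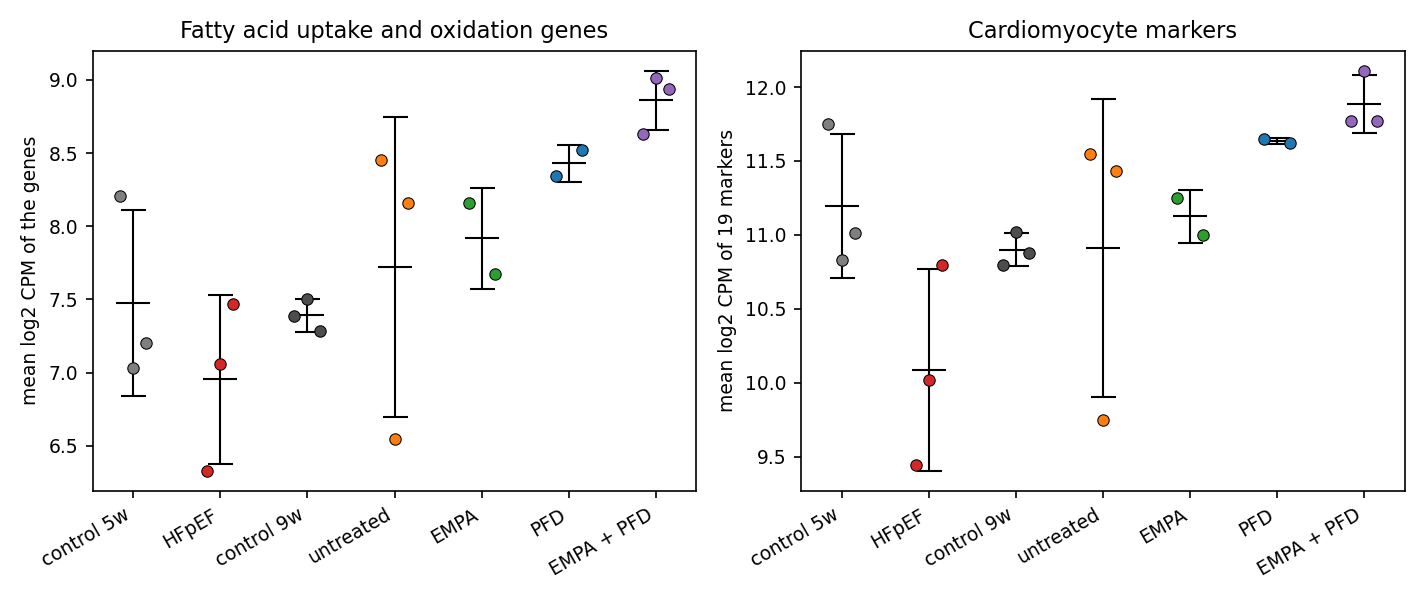
Mean log2 CPM of the 35 fatty acid genes (left) and of 19 cardiomyocyte markers (right) in each of the 19 libraries, by group. Points are libraries, the long bar is the group mean and the error bar is the SD (n = 3, or 2 for EMPA and PFD). The EMPA + PFD libraries sit between 8.63 and 9.01 on the left, and untreated replicate 2, at 6.55, lies far below the other untreated libraries.

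Markers of the atrium, a neighbouring chamber, were summed over 8 genes, of which Nppa was the most abundant and none was at 0. They reached 214, 15212 and 599 CPM in untreated, 5408, 258 and 23939 in control 9w and 335, 801 and 399 in EMPA + PFD, and 3520.0, 6659 and 5119 in control 5w, 2509, 385 and 2211 in HFpEF, 885 and 5454 in EMPA and 3196 and 251 in PFD. Among them, Myl4 had 41, 19668 and 46 counts in untreated and 2702, 24 and 13853 in control 9w, the high counts being in untreated replicate 2 and control 9w replicates 1 and 3. In every group but EMPA + PFD, the library with the highest atrial sum had the lowest mean of the fatty acid genes. Untreated replicate 2 and control 9w replicate 3 were such libraries. In EMPA + PFD the library with the highest atrial sum, replicate 2, had the highest mean. Fibroblast markers (12 genes, Col3a1 the most abundant, none at 0) summed to 8531, 49332 and 40598 CPM in control 5w, 22537, 18193 and 19135 in HFpEF, 9069, 6213 and 9167 in control 9w, 9229, 16686 and 7923 in untreated, 7188 and 10418 in EMPA, 7842 and 9302 in PFD and 11370.4, 4209 and 8097 in EMPA + PFD. Control 5w replicate 1 was thus the lowest of its group in fibroblast markers and the highest in the fatty acid genes. The part of cell composition in the results was not tested.

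EMPA + PFD against control 9w asked how hearts on the combination differed from healthy hearts of the same week. Of the 10 comparisons tested, it was the one in which the fatty acid genes differed most widely. EMPA + PFD was not compared with HFpEF. EMPA + PFD rats had the high-fat diet and L-NAME as well as both drugs, and control 9w rats had none of these. The drugs and the induction of HFpEF therefore cannot be told apart in the comparison with control 9w. Of the 35 genes, 25 rose and 1 fell at an adjusted p under 0.05, where 17.1% and 16.6% of all tested genes did. The 25 included all 10 genes of the mitochondrial spiral, all 4 auxiliary enzymes, all 3 peroxisomal genes, 4 of 5 carnitine genes, 2 of 3 electron transfer genes, but 1 of 4 uptake genes and 1 of 6 activation genes. Of the 25, 23 also rose at least 2-fold, against 7.15% of all tested genes. For 28 of the 35 every EMPA + PFD library was above every control 9w library, which held for 24.7% of all tested genes. The median log2 fold change of the 35 was 1.60, and that of all tested genes −0.08. Adjusted p for the 26 called genes ran from 0.000276 to 0.041. The number that rose was 16, 15 and 14 without control 9w replicate 1, 2 and 3 and 15 without EMPA + PFD replicate 2 (23 and 18 without replicates 1 and 3), and with any 1 library left out 14 of the 26 calls were kept throughout. In the same comparison 6 of 19 cardiomyocyte markers rose and 0 fell (median 1.16), 10 of 12 endothelial markers fell, 5 of 8 atrial markers fell and 0 of 12 fibroblast markers were called by edgeR or DESeq2, with 0 at an unadjusted p under 0.05. The number of cardiomyocyte markers that rose was 10 without untreated replicate 2, 3 without control 9w replicate 3, EMPA + PFD replicate 1 or 3 or either EMPA library, and 2 without control 9w replicate 1 or 2 or EMPA + PFD replicate 2, and 1 fell without control 9w replicate 3 or untreated replicate 2. Without EMPA + PFD replicate 2, 6 endothelial markers fell, and the atrial falls were 3 without EMPA + PFD replicate 1 or control 9w replicate 3 and 1 without EMPA + PFD replicate 2 or 3.

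EMPA + PFD against untreated asked what 4 weeks of the combination did in diseased hearts. Slc27a1, Hadhb and Ehhadh rose and Acsl5 fell. These 3 rises among 35 stand beside 6.6% of all tested genes that rose, and the 1 fall beside 5.52%, so the number of calls was close to the background. At the added threshold of 2-fold, 2 of the 35 rose, against 2.34% of all tested genes. The size of the difference was not close to the background: the median log2 fold change was 1.04 over the 35 genes and −0.03 over all tested genes, 32 of 35 estimates were above 0, and for 26 of 35 every EMPA + PFD library was above every untreated library, against 18.7% of all tested genes. The median was 1.45 without untreated replicate 1 and 0.67 without untreated replicate 2, and without the latter 0 genes were called by edgeR. The number that rose depended on nearly every library: it was 12 without untreated replicate 1, 8 without control 5w replicate 1, 5 without EMPA + PFD replicate 1, 2 without HFpEF replicate 2 or control 9w replicate 3, 1 without HFpEF replicate 3 or either EMPA library, and 0 without untreated replicate 2 or 3, EMPA + PFD replicate 2 or 3, control 5w replicate 2 or 3, control 9w replicate 1 or 2, or either PFD library. Of all tested genes, 0.697% rose without untreated replicate 2 and 9.53% without control 5w replicate 1. DESeq2 called 15 of the 35, where 11.8% and 9.05% of all genes tested by it rose and fell. A term for Eif2s3y could be estimated through the HFpEF group alone, so that in every comparison it rested on HFpEF replicate 2 against replicates 1 and 3. With this term edgeR called 0 of the 35, where 1.67% and 2.32% of all tested genes rose and fell. It also called 0 in a fit of only the groups compared, where 0.0348% and 0.00869% did.

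Markers of other cells differed in this comparison too. The median log2 fold change was 0.72 over the 19 cardiomyocyte markers, of which 2 rose, −0.73 over the 12 endothelial markers, of which 2 fell, and −4.88 over the 8 atrial markers, of which 2 fell. These counts depended on most libraries. The cardiomyocyte rises were 1 without control 5w replicate 2 or 3, control 9w replicate 1, 2 or 3, untreated replicate 2 or 3, EMPA replicate 1 or 2, PFD replicate 1 or 2 or EMPA + PFD replicate 2 or 3. The endothelial falls were 5 without HFpEF replicate 1 or EMPA + PFD replicate 1; 4 without HFpEF replicate 2; 1 without control 5w replicate 3, control 9w replicate 1, untreated replicate 2 or 3, EMPA replicate 1 or 2, PFD replicate 1 or 2 or EMPA + PFD replicate 2 or 3. The atrial falls were 4 without control 9w replicate 2 or untreated replicate 1; 1 without HFpEF replicate 1 or 2 or untreated replicate 3; 0 without control 5w replicate 2 or 3, HFpEF replicate 3, control 9w replicate 1, untreated replicate 2, EMPA replicate 1 or 2, PFD replicate 1 or 2 or EMPA + PFD replicate 1, 2 or 3. The part of these markers in the difference of the fatty acid genes was not tested.

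Against untreated, neither drug alone gave a call among the 35 genes. For EMPA, 0 genes rose or fell by edgeR, 0 had an unadjusted p under 0.05 and DESeq2 called 0, where 0.0161% and 0.0242% of all tested genes rose and fell by edgeR, 8.63% had an unadjusted p under 0.05 and DESeq2 had 0.461% rise and 0.307% fall. For PFD the numbers were also 0, 0 and 0, with 0.00807%, 0%, 5.21%, 0.0323% and 0.00808% over all genes in the same order. The median log2 fold change over the 35 was −0.05 for EMPA and 0.54 for PFD. These became −0.36 and 0.13 without untreated replicate 2 and 0.31 and 0.97 without untreated replicate 1. That for EMPA was also 0.04 without untreated replicate 3 and −0.27 and 0.19 without EMPA replicates 1 and 2, so that its sign depended on single libraries. Of 3 marker lists edgeR called 0 in both comparisons. Cardiomyocyte medians were 0.09 and 0.53 (1 and 0 of 19 at an unadjusted p under 0.05, 0 by DESeq2), atrial medians −3.54 and −3.66 (5 and 4 of 8, 1 and 0 by DESeq2) and erythroid medians 3.34 and 1.87 (6 and 4 of 6, 6 and 0 by DESeq2). With EMPA the erythroid rises were 4 without EMPA replicate 2; 1 without HFpEF replicate 2 or 3 or PFD replicate 1 or 2. Their part was not tested. The 3 comparisons with untreated share its libraries. A p above the threshold does not show that a drug left these genes alone, and each drug group had 2 hearts.

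The combination was also compared with each drug. EMPA + PFD against EMPA had 4 of the 35 genes higher (Echs1, Hadh, Hadhb and Ehhadh) and 1 lower (Acsl5), where 5.3% and 4.42% of all tested genes were called in these directions, with a median of 0.88 over the 35 and −0.05 over all. None of the 35 was called by edgeR without either EMPA library or without EMPA + PFD replicate 2 or 3 (1 rise remained without control 9w replicate 1, 2 or 3, untreated replicate 3, control 5w replicate 3 or either PFD library, 2 without control 5w replicate 2, 12 without untreated replicate 2 and 6 without control 5w replicate 1). Of all tested genes, 9.43% rose without untreated replicate 2 and 7.6% without control 5w replicate 1. The call of Acsl5 was also lost without EMPA + PFD replicate 1. A fit of only the groups compared called 17 of the 35, all higher and Acsl5 not among them (7.39% and 3.6% of all genes rose and fell), DESeq2 called 10 (10.2% and 6.96%) and the fit with the replicate block 0 (2.12% and 1.36%). In the same comparison 5 of 6 erythroid, 3 of 11 smooth muscle and pericyte and 2 of 7 Schwann cell markers fell, 1 of 19 cardiomyocyte markers rose, and the median of the latter list was 0.66. The erythroid falls were 3 without control 5w replicate 3 or control 9w replicate 1; 1 without EMPA + PFD replicate 1; 0 without EMPA replicate 1 or 2 or EMPA + PFD replicate 3, and the smooth muscle falls 6 without control 5w replicate 1; 1 without control 9w replicate 1; 0 without EMPA replicate 2 or EMPA + PFD replicate 2 or 3. The Schwann cell falls were 1 without control 5w replicate 2 or 3, control 9w replicate 1, 2 or 3, untreated replicate 3, EMPA replicate 1 or PFD replicate 1 or 2; 0 without EMPA replicate 2 or EMPA + PFD replicate 1, 2 or 3, and the cardiomyocyte rises 4 without untreated replicate 2; 3 without control 5w replicate 1, HFpEF replicate 1 or EMPA + PFD replicate 1; 0 without EMPA replicate 1 or 2. The part of these markers was not tested.

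EMPA + PFD against PFD had 0 of the 35 called, by edgeR and by DESeq2, with 1 gene at an unadjusted p under 0.05. Over all tested genes 0% and 0% rose and fell by edgeR, 10.2% had an unadjusted p under 0.05, and DESeq2 had 0.546% rise and 0.336% fall. Its median log2 fold change was 0.49, and for 23 of the 35 genes all 3 EMPA + PFD libraries were above both PFD libraries, against 17.7% over all tested genes. Marker medians were 0.18 for cardiomyocyte, −1.53 for erythroid and −1.66 for adipocyte markers, with 1 of 19, 3 of 6 and 0 of 5 at an unadjusted p under 0.05. In these lists edgeR called 0, and DESeq2 called 1 cardiomyocyte marker. Their part was not tested.

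Disease at week 9, untreated against control 9w, gave 0 calls among the 35 genes by edgeR, where 0.589% of all tested genes rose and 1.19% fell. At an unadjusted p under 0.05 there were 8, where 18.2% of all tested genes were, a share near that of the 35. DESeq2 called 6, where it had 2.21% of all genes rise and 4.44% fall. The estimates were mostly above 0, with a median of 0.73 against 0.01 for all genes, but Acsl3 was the 1 gene of 35 with every untreated library above every control 9w library, which held for 9.48% of all tested genes. Without untreated replicate 2, 14 genes rose and 1 fell, where 4.33% and 3.90% of all tested genes did, and the median was 1.16. It was 0.32 without untreated replicate 1 and 0.49 without untreated replicate 3, so that each untreated library moved it. Without control 5w replicate 1 there was 1 fall, and without EMPA + PFD replicate 1 there was 1 rise. In the former fit 1.53% of all tested genes fell. Of the markers, 2 of 6 erythroid ones fell and 1 of 14 leukocyte ones rose, and the median of the cardiomyocyte markers was 0.31. The erythroid falls were 1 without control 5w replicate 3; 0 without control 9w replicate 1 or 2 or untreated replicate 1 or 3, and the leukocyte rises 0 without control 5w replicate 2, HFpEF replicate 3, control 9w replicate 1, 2 or 3 or untreated replicate 1 or 3. The part of these markers was not tested.

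Disease at week 5, HFpEF against control 5w, gave 1 rise (Acsl5) and 1 fall (Acsl1) among the 35, where 9.83% and 10.2% of all tested genes rose and fell, a smaller share than over all tested genes. The median log2 fold change was −0.60, against 0.02 over all tested genes. For 5 of the 35 every HFpEF library was below every control 5w library, against 19.1% of all tested genes. This median rested on single libraries: it was −0.00 without control 5w replicate 1 and −0.26 without HFpEF replicate 1. The fall of Acsl1 was lost without 12 of the 19 libraries in turn (control 5w replicate 1, HFpEF replicates 1 and 2, control 9w replicates 1, 2 and 3, untreated replicate 3, EMPA replicates 1 and 2, PFD replicates 1 and 2, EMPA + PFD replicate 3). The number of falls was 7 without untreated replicate 2, 4 without untreated replicate 1, 3 without HFpEF replicate 3 and 2 without control 5w replicate 2. Of all tested genes, 13.8% fell without untreated replicate 2. DESeq2 called 5 of the 35 (12.8% and 13.3% of all genes rose and fell), and with the replicate block (8.29% and 8.72%), the term for Eif2s3y (5.68% and 5.13%) or only the groups compared (2.7% and 3.31%) the rise of Acsl5 was the 1 call left. In the same comparison 6 of 19 cardiomyocyte markers fell and 1 rose (median −1.18), and 7 of 12 endothelial markers rose. Those falls were 12 without untreated replicate 2 and 1 without control 5w replicate 1 or HFpEF replicate 1 or 2, and the endothelial rises were 4 without control 5w replicate 2 or 3 or HFpEF replicate 2. Of 7 Schwann cell markers 2 rose (median 1.86), and of 8 atrial markers 1 fell (median −1.43). The Schwann cell rises were 1 without control 5w replicate 2; 0 without control 5w replicate 3 or HFpEF replicate 1, and the atrial falls 2 without untreated replicate 2; 0 without control 5w replicate 1, 2 or 3, HFpEF replicate 1, 2 or 3, control 9w replicate 1, EMPA replicate 1 or 2, PFD replicate 1 or 2 or EMPA + PFD replicate 3.

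The difference of these disease effects, week 9 minus week 5, was tested as an interaction. It was above 0 for Crat, Echs1, Hadh, Hadhb, Etfdh and Hsd17b4 and below 0 for Acsl5, which is 6 and 1 of 35, against 9.76% and 10.2% of all tested genes. The median difference was 1.12 on the log2 scale, and −0.02 over all genes. It was 0.65 without control 5w replicate 1, 0.74 without untreated replicate 1 and 1.53 without untreated replicate 2. The calls of Hadh, Hadhb and Acsl5 were kept without any 1 of the 19 libraries, and those of the other 4 genes were each lost without control 5w replicate 1, HFpEF replicate 1 or 2, control 9w replicate 1 or 2, or untreated replicate 1 or 3. Those of Crat, Echs1 and Hsd17b4 were also lost without control 9w replicate 3, and that of Hsd17b4 without control 5w replicate 3. Without untreated replicate 2, 18 genes were above 0, where 15.9% of all tested genes were, and without HFpEF replicate 3 there were 8. The total of 7 is near the background. With the term for Eif2s3y (6.94% and 8.36% of all tested genes above and below 0) and in a fit of only the groups compared (6.44% and 6.62%) Hadh, Hadhb and Acsl5 were the calls left. With the replicate block there were 4, Etfdh beside these (8.06% and 8.56%), and DESeq2 called 12 (12.5% and 13.4%).

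The median of the 19 cardiomyocyte markers in this interaction was 1.62, larger than that of the fatty acid genes, with 6 markers called above and 1 below 0. Of 12 endothelial markers 6 were called below 0 (median −1.07), of 6 erythroid markers 5 were (median −3.43), and of 11 smooth muscle and pericyte markers 4 were called above 0. The cardiomyocyte markers called above 0 were 10 without untreated replicate 2; 3 without control 5w replicate 3, EMPA replicate 1 or 2, PFD replicate 1 or 2 or EMPA + PFD replicate 2 or 3; 2 without control 9w replicate 3; 1 without control 5w replicate 1, HFpEF replicate 1 or 2, control 9w replicate 1 or 2 or untreated replicate 1 or 3. Endothelial markers below 0 were 10 without HFpEF replicate 1; 3 without untreated replicate 1, and erythroid markers below 0 were 3 without untreated replicate 1. The smooth muscle markers above 0 were 2 without control 5w replicate 1, 2 or 3, HFpEF replicate 2 or control 9w replicate 1; 1 without control 9w replicate 2 or untreated replicate 3; 0 without untreated replicate 1. The part of these markers was not tested.

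The control hearts also differed between the weeks: in control 9w against control 5w, Acsl5 rose and Acsl3, Hadh and Hadhb fell, against 17.3% and 17.2% of all tested genes, with a median of −0.10. Without control 5w replicate 1 that median was 0.39 with 4 rises and 1 fall, and it was −0.35 and −0.29 without control 5w replicates 2 and 3 and −0.06 and −0.18 without control 9w replicates 1 and 2. The number of falls was 1 without any control 9w library and 9 without untreated replicate 2. Of all tested genes, 19.8% fell without untreated replicate 2, and 16.9% and 17.5% rose and fell without control 5w replicate 1. The fall of Hadhb was lost without 9 of the 19 libraries in turn (control 5w replicates 1 and 3, control 9w replicates 1, 2 and 3, untreated replicate 3, PFD replicates 1 and 2, EMPA + PFD replicate 3), that of Hadh without control 5w replicate 1 or control 9w replicates 1, 2 and 3, and the calls of Acsl3 and Acsl5 were kept without any 1 library. The call of Hadhb was also lost with the replicate block, where 16.0% and 15.3% of all tested genes rose and fell. Without HFpEF replicate 1, 2 genes rose, where 18.3% of all tested genes did. In the same comparison 11 of 12 endothelial markers rose, 9 of 12 fibroblast markers and 8 of 14 tested leukocyte markers fell, and 5 of each of the latter lists fell without control 9w replicate 2. Of 19 cardiomyocyte markers 1 rose and 2 fell (median −0.49), and the falls were 4 without untreated replicate 2; 1 without control 5w replicate 1 or control 9w replicate 1 or 2. Of 8 atrial markers 3 rose, with a median of 2.47, the largest of the lists, and the atrial rises were 1 without control 9w replicate 3. The part of these markers was not tested.

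**Figure D2:**
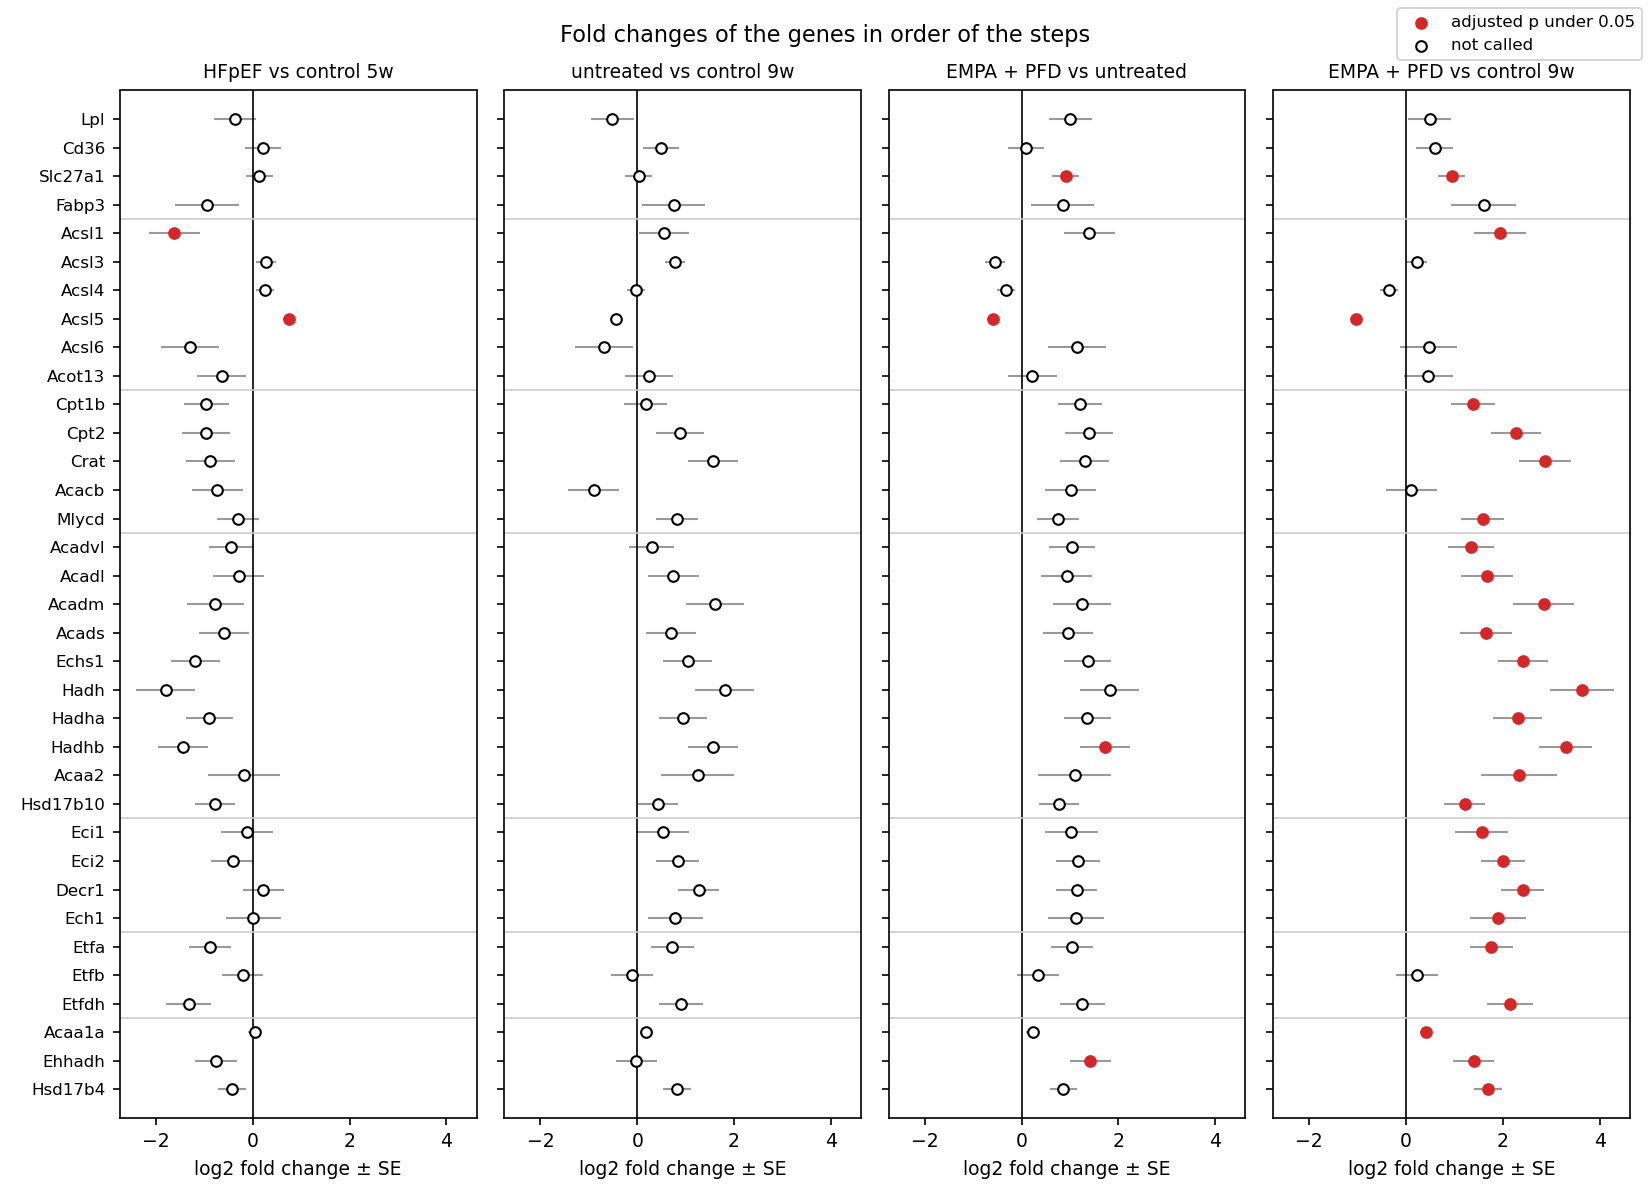
Log2 fold change of each of the 35 genes in 4 comparisons, with genes in order of the steps from uptake at the top to peroxisomes at the bottom. Points are estimates of the fit over all 19 libraries, bars are standard errors, filled points have an adjusted p under 0.05, and grey lines part the steps. In EMPA + PFD vs control 9w 26 points are filled, and Acsl5 lies left of 0 there and right of 0 in HFpEF vs control 5w.

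Among the genes of uptake and binding, Lpl, lipoprotein lipase, had 2412, 981 and 1312 CPM in control 5w and 743, 1078 and 1818 in HFpEF. Its levels at week 9 were 2627, 2964 and 1905 CPM in control 9w, 2591, 714 and 1940.1 in untreated, 2001 and 1378 in EMPA, 2664 and 2545 in PFD and 2642, 4213 and 3687 in EMPA + PFD. Its EMPA + PFD libraries were above all untreated libraries but overlapped control 9w, and the log2 fold change against untreated, the largest of this step, was 1.01 (SE 0.45, adjusted p = 0.132). Cd36, the main sarcolemmal fatty acid translocase, had 503, 233 and 294 CPM in control 5w and 194, 511 and 492 in HFpEF. In week 9 hearts it had 463, 444 and 235 CPM in control 9w, 573, 375 and 659 in untreated, 693 and 499 in EMPA, 563 and 615 in PFD and 506, 509 and 704 in EMPA + PFD. Cd36 was the gene of this step that differed least between EMPA + PFD and untreated, with overlapping libraries and a log2 fold change of 0.10 (SE 0.37, adjusted p = 0.874). That sign turned without untreated replicate 2 (−0.105).

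Slc27a1, a transporter that also activates fatty acids, had 114, 63.3 and 71.9 CPM in control 5w and 79.9, 93.8 and 99.0 in HFpEF. Week 9 levels were 128, 144 and 87.9 CPM in control 9w, 160.3, 85.4 and 123 in untreated, 145 and 102 in EMPA, 156 and 156 in PFD and 165, 296 and 231 in EMPA + PFD. It rose in EMPA + PFD against untreated with a log2 fold change of 0.91 (SE 0.28, adjusted p = 0.0471), the lowest EMPA + PFD library being just above the highest untreated one. That call was lost without 14 of the 19 libraries in turn (control 5w replicates 2 and 3, HFpEF replicates 2 and 3, control 9w replicates 1 and 2, untreated replicates 2 and 3, EMPA replicates 1 and 2, PFD replicates 1 and 2, EMPA + PFD replicates 2 and 3). The call against untreated was also lost with the replicate block. Against control 9w the value was 0.94 (SE 0.28, adjusted p = 0.0188), a call lost without control 9w replicate 3 or EMPA + PFD replicate 2. Fabp3, the heart's fatty acid binding protein of the cytosol, ranged from 354 to 4275 CPM, and its log2 fold change was 0.85 (SE 0.66) against untreated and 1.60 (SE 0.67) against control 9w. Neither passed the test in the fit of all groups, but DESeq2 and the fit of only the groups compared called the latter, and all 3 EMPA + PFD libraries were above all libraries of both groups. Slc27a1 overlaps Pgls, and Fabp3 overlaps Zcchc17, in the RefSeq gene table of GRCr8, and reads of such neighbours could be shared since the strand setting of the counting is not given.

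The long-chain acyl-CoA synthetases, which activate fatty acids, did not behave alike. Acsl1, the main isoform of the heart, had 1406, 375 and 452 CPM in control 5w and 133, 255 and 338 in HFpEF. Levels at week 9 were 414, 477 and 378 CPM in control 9w, 957, 225 and 678 in untreated, 652 and 496 in EMPA, 858 and 1051 in PFD and 1109.8, 2108 and 1689.7 in EMPA + PFD. Acsl1 fell in HFpEF at week 5, with every HFpEF library below every control 5w library and a log2 fold change of −1.62 (SE 0.53, adjusted p = 0.0441). It was −0.77 without control 5w replicate 1 and −1.33 without HFpEF replicate 1, and neither was called, nor was the value without 10 other libraries named above, with the replicate block, the term for Eif2s3y or only the groups compared. In EMPA + PFD the log2 fold change was 1.40 (SE 0.53, adjusted p = 0.0870) against untreated, the largest of this step, and 1.95 (SE 0.54, adjusted p = 0.0132) against control 9w.

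Acsl5, an isoform of the outer mitochondrial membrane and endoplasmic reticulum, ran against most of the other genes. It had 60.6, 78.1 and 76.6 CPM in control 5w and 114, 127 and 118 in HFpEF. At week 9 it had 122, 131 and 111 CPM in control 9w, 78.8, 95.3 and 92.8 in untreated, 94.4 and 75.5 in EMPA, 82.3 and 79.8 in PFD and 57.8, 56.2 and 63.8 in EMPA + PFD. Control 5w and EMPA + PFD were thus low and HFpEF and control 9w high, and these pairs did not overlap. Acsl5 rose in HFpEF with a log2 fold change of 0.74 (SE 0.12, adjusted p = 0.00194), a call kept without any 1 library. It fell by 0.59 (SE 0.12, adjusted p = 0.0137) on the log2 scale against untreated, a call lost without untreated replicate 2 or 3 or EMPA + PFD replicate 2. Against control 9w the fall was −1.03 (SE 0.12, adjusted p = 0.000276), which held without any 1 library, as did the rise in control 9w against control 5w of 0.76 (SE 0.12). The disease effect at week 9 was lower than at week 5 by 1.19 (SE 0.17, adjusted p = 0.00115) on the log2 scale. Acsl5 overlaps Zdhhc6 in the GRCr8 gene table.

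Acsl3 and Acsl4, isoforms tied to lipid droplets and to polyunsaturated acids, had log2 fold changes of −0.56 (SE 0.21) and −0.32 (SE 0.18) in EMPA + PFD against untreated, neither passing the test. Acsl3 fell in control 9w against control 5w, with a log2 fold change of −0.76 (SE 0.21, adjusted p = 0.0125), from 33.7, 43.7 and 41.9 CPM to 25.9, 23.2 and 21.5 CPM. Acsl6, an isoform known best from brain, ranged from 2.68 CPM in untreated replicate 2 to 44.2 CPM in control 5w replicate 1 and was called by edgeR in none of the 10 comparisons in the fit of all groups, but in EMPA + PFD against EMPA in that of only the groups compared. Acot13, a thioesterase that splits acyl-CoA again, had 120.0, 43.2 and 47.3 CPM in control 5w and 17.7, 55.1 and 62.3 in HFpEF. Its levels at week 9 were 70.0, 100.1 and 71.8 CPM in control 9w, 129, 35.6 and 121 in untreated, 119 and 64.3 in EMPA, 114 and 124 in PFD and 115, 111 and 108 in EMPA + PFD. It differed least of this step between EMPA + PFD and untreated, with a log2 fold change of 0.22 (SE 0.50, adjusted p = 0.773), which was −0.17 without untreated replicate 2.

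In the carnitine shuttle, Cpt1b, the muscle carnitine palmitoyltransferase of the outer membrane and target of malonyl-CoA, had 787, 291 and 340.4 CPM in control 5w and 119, 227 and 384 in HFpEF. In week 9 hearts it had 422, 492 and 412 CPM in control 9w, 675, 214 and 607 in untreated, 719.9 and 603 in EMPA, 796 and 778 in PFD and 925, 1430.1 and 1103 in EMPA + PFD. All 3 EMPA + PFD libraries were above every other library of both weeks. The log2 fold change was 1.21 (SE 0.46, adjusted p = 0.0871) against untreated and 1.38 (SE 0.46, adjusted p = 0.0314) against control 9w, the latter lost without control 9w replicates 1, 2 and 3 or EMPA + PFD replicates 2 and 3. DESeq2 called the former. Cpt2, the inner-membrane partner that returns the acyl group to CoA, had 239, 118 and 124 CPM in control 5w and 53.7, 72.0 and 119.9 in HFpEF. Week 9 levels were 76.4, 104 and 75.4 CPM in control 9w, 248, 36.4 and 186 in untreated, 179.9 and 137 in EMPA, 229.9 and 259 in PFD and 309, 490.1 and 434 in EMPA + PFD. Its log2 fold change was the largest of the step against untreated, at 1.39 (SE 0.50, adjusted p = 0.0758), and against control 9w it rose by 2.27 (SE 0.52, adjusted p = 0.00490) on the log2 scale, also without any 1 library.

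Crat, which buffers acetyl-CoA as acetylcarnitine, rose against control 9w from 158, 177 and 143 CPM to 852, 1462 and 1199 CPM in EMPA + PFD, a log2 fold change of 2.88 (SE 0.54, adjusted p = 0.00188). In untreated it had 817, 129 and 473 CPM. Malonyl-CoA is made by Acacb, acetyl-CoA carboxylase at the mitochondrial surface, and removed by Mlycd, malonyl-CoA decarboxylase. Acacb had 708, 845 and 509 CPM in control 9w, 428, 318 and 358 in untreated and 578, 887 and 760.4 in EMPA + PFD, every untreated library being below every control 9w library, with a log2 fold change of −0.90 (SE 0.53, adjusted p = 0.389). Every EMPA + PFD library was above every untreated one, with a log2 fold change of 1.01 (SE 0.53, adjusted p = 0.194). Mlycd had 150.3, 68.8 and 77.7 CPM in control 5w and 46.3, 84.8 and 109.7 in HFpEF. Levels at week 9 were 96.1, 91.6 and 99.6 CPM in control 9w, 256, 55.6 and 198 in untreated, 156 and 117 in EMPA, 216 and 266 in PFD and 234, 321 and 305 in EMPA + PFD. Its EMPA + PFD and untreated libraries overlapped, with a log2 fold change of 0.76 (SE 0.43, adjusted p = 0.233), the smallest of the step, while against control 9w Mlycd rose by 1.58 (SE 0.44, adjusted p = 0.0143), a call lost without control 9w replicate 2.

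The mitochondrial spiral had a median log2 fold change over 10 genes of 2.33 in EMPA + PFD against control 9w and 1.00 in untreated against control 9w, the largest of the steps, the latter 1.45 without untreated replicate 2. Against untreated its median was 1.17 and that of the carnitine shuttle 1.21, which became 0.70 and 0.86 without that library. In HFpEF against control 5w its median was −0.78, that of the carnitine shuttle −0.88 and that of electron transfer −0.89. These became −0.28, −0.29 and −0.45 without control 5w replicate 1 and −0.52, −0.63 and −0.72 without HFpEF replicate 1, smaller in each case. Hadh, the dehydrogenase for medium and short chains, had 397, 121 and 167 CPM in control 5w and 41.8, 57.1 and 97.7 in HFpEF. At week 9 it had 63.8, 49.9 and 79.6 CPM in control 9w, 410.0, 41.1 and 225 in untreated, 171 and 107 in EMPA, 326 and 494 in PFD and 660.0, 899 and 837 in EMPA + PFD. The EMPA + PFD libraries were above every other library. The log2 fold change was 1.83 (SE 0.61, adjusted p = 0.0615) against untreated, the largest of the step, and 3.63 (SE 0.66, adjusted p = 0.00159) against control 9w. Against EMPA it was 2.52 (SE 0.73, adjusted p = 0.0445), a call lost without 11 of the 19 libraries in turn (control 5w replicate 3, control 9w replicates 1, 2 and 3, untreated replicate 3, EMPA replicates 1 and 2, PFD replicates 1 and 2, EMPA + PFD replicates 2 and 3). Hadh fell in control 9w against control 5w with −1.82 (SE 0.61, adjusted p = 0.0325), a call lost without control 5w replicate 1 or control 9w replicates 1, 2 and 3. Its disease effect was −1.8 at week 5 and 1.8 at week 9 on the log2 scale, opposite in sign and neither called. The difference, week 9 minus week 5, was 3.61 (SE 0.87, adjusted p = 0.0119).

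Hadha and Hadhb encode the α and β subunits of the mitochondrial trifunctional protein, which carries out the last 3 reactions of the spiral on long chains. Hadhb had 1547, 688 and 749 CPM in control 5w and 276, 309 and 518 in HFpEF. Its levels at week 9 were 380.2, 311 and 406 CPM in control 9w, 1909, 253 and 1107 in untreated, 1004 and 685 in EMPA, 1707 and 1766 in PFD and 2861, 4335 and 3625 in EMPA + PFD. The combination libraries were above all other libraries. Hadhb rose in EMPA + PFD against untreated with a log2 fold change of 1.73 (SE 0.52, adjusted p = 0.0449), a call lost without 13 of the 19 libraries in turn (control 5w replicates 2 and 3, control 9w replicates 1, 2 and 3, untreated replicates 2 and 3, EMPA replicates 1 and 2, PFD replicates 1 and 2, EMPA + PFD replicates 2 and 3). It was 1.26 without untreated replicate 2. Against control 9w it rose by 3.30 (SE 0.55, adjusted p = 0.00107) on the log2 scale, which held without any 1 library. Against EMPA the value was 2.10 (SE 0.61, adjusted p = 0.0450), lost without 12 of the 19 libraries in turn (control 5w replicates 2 and 3, control 9w replicates 1, 2 and 3, untreated replicate 3, EMPA replicates 1 and 2, PFD replicates 1 and 2, EMPA + PFD replicates 2 and 3). Hadha moved in the same directions by less, with log2 fold changes of 1.36 (SE 0.49) against untreated, 2.31 (SE 0.51, adjusted p = 0.00420) against control 9w and −0.90 (SE 0.49) in HFpEF.

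Hadha and Hadhb are neighbours on chromosome 6 and are read in opposite directions, and their start regions in RefSeq, each 300 bases long, share 200 bases. The Hadhb region (GRCr8 chr6:31907451-31907750, minus strand) is shown since both genes rose in EMPA + PFD against control 9w and their windows overlap. Capitals mark the GC box (GGGCGG or its complement) and the nuclear receptor motif AAGGTCA, which is present near the end of the window as its complement. The first GC box lies in the part shared with the Hadha window, and the other 3 and the nuclear receptor motif lie outside it. Hadhb: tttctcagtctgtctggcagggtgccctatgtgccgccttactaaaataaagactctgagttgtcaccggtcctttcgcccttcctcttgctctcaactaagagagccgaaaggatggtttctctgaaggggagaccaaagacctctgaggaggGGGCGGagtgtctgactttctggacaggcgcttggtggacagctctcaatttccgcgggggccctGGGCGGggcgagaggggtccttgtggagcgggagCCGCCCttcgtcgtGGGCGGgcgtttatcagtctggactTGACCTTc The Hadha window lies at GRCr8 chr6:31907551-31907850 on the plus strand.

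RefSeq start regions were at hand for 29 of the 35 genes, the others being Lpl, Cpt1b, Acadl, Acaa2, Decr1 and Ech1. On either strand, AGGTCA, a motif of nuclear receptors, was in 8 of 29, against 12.2% of the 10234 start regions of tested genes and 16.2% of all 33469. AAGGTCA, which contains it, was in 2 of 29 (Hadhb and Acacb), against 2.90% and 4.61%. AGGTCANAGGTCA, a direct repeat of AGGTCA with 1 base between and known as the motif of PPAR and RXR dimers, was in 0 of 29, against 0.0391% and 0.0538%. GGGCGG was in 20 of 29, against 60.5% and 33.1%, CCAAT in 12, against 37.2% and 37.5%, and TATAAA in 3, against 7.38% and 14.2%. These are matches of letters in short windows and say nothing of binding.

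The acyl-CoA dehydrogenases take the first step for chains of different length. Acadvl, Acadl, Acadm and Acads, for very long, long, medium and short chains, had log2 fold changes of 1.35, 1.67, 2.85 and 1.65 in EMPA + PFD against control 9w (adjusted p = 0.0410, 0.0283, 0.00441 and 0.0264), with every EMPA + PFD library above every control 9w library. The call of Acadm held without any 1 library, and those of Acadvl, Acadl and Acads were lost without any control 9w library or EMPA + PFD replicate 2, for Acadvl and Acadl also without EMPA + PFD replicate 3 and for Acadvl with the replicate block. Against untreated the values were 1.05 (SE 0.47), 0.93 (SE 0.53), 1.24 (SE 0.60) and 0.96 (SE 0.52), and none passed the test. Echs1, the hydratase of the next step, was among the genes of low count. It had 6.20, 6.03 and 6.88 CPM in control 9w, 18.3, 3.49 and 18.1 in untreated, 7.99 and 5.22 in EMPA and 18.0, 46.4 and 37.8 in EMPA + PFD. Echs1 rose against control 9w with 2.42 (SE 0.51, adjusted p = 0.00349) and against EMPA with 2.37 (SE 0.60, adjusted p = 0.0296), the latter lost without EMPA replicates 1 and 2 or EMPA + PFD replicates 2 and 3.

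Acaa2, the thiolase of the last step, varied widely within control 5w and untreated: 1066, 168 and 202 CPM in control 5w and 1997, 172 and 1519 in untreated. In EMPA + PFD it had 2482, 2699.9 and 2693 CPM, which are close together. Its log2 fold change was 1.09 (SE 0.75) against untreated and 2.34 (SE 0.78, adjusted p = 0.0324) against control 9w, a call lost without control 9w replicates 1, 2 and 3 or EMPA + PFD replicates 2 and 3. Hsd17b10, an X-linked dehydrogenase that also serves isoleucine breakdown and mitochondrial tRNA processing, had 248, 99.5 and 106 CPM in control 5w and 60.8, 83.4 and 120.1 in HFpEF. In week 9 hearts it had 107, 124 and 105 CPM in control 9w, 227, 56.4 and 172 in untreated, 171 and 129.8 in EMPA, 218 and 232 in PFD and 262, 273 and 246 in EMPA + PFD. It differed least of the spiral between EMPA + PFD and untreated, at 0.78 (SE 0.41, adjusted p = 0.204), with libraries that did not overlap, and its rise against control 9w, 1.21 (SE 0.42, adjusted p = 0.0369), was lost without any control 9w or EMPA + PFD library.

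The auxiliary enzymes reshape double bonds so that unsaturated chains can enter the spiral. Eci2, an enoyl-CoA isomerase found in mitochondria and peroxisomes, had 249, 94.4 and 111 CPM in control 5w and 77.4, 115 and 149 in HFpEF. Week 9 levels were 105, 123 and 107 CPM in control 9w, 309, 66.2 and 221 in untreated, 223 and 151 in EMPA, 298 and 337 in PFD and 367, 496 and 477 in EMPA + PFD. It had the largest log2 fold change of these 4 genes against untreated, 1.17 (SE 0.45, adjusted p = 0.0909), and rose against control 9w by 2.00 (SE 0.46, adjusted p = 0.00514) on the log2 scale. Eci1, the mitochondrial isomerase, had 269.6, 85.3 and 92.7 CPM in control 5w and 73.1, 135 and 201 in HFpEF. Levels at week 9 were 210.4, 283 and 163 CPM in control 9w, 481, 98.8 and 372 in untreated, 549 and 298 in EMPA, 417 and 504 in PFD and 479.9, 728 and 736 in EMPA + PFD. Eci1 had the smallest value of the 4 against untreated, 1.03 (SE 0.54, adjusted p = 0.197), with EMPA + PFD replicate 1 just below untreated replicate 1, and its rise against control 9w, 1.57 (SE 0.55, adjusted p = 0.0392), was lost without control 9w replicates 1, 2 and 3 or EMPA + PFD replicates 2 and 3 and with the replicate block. Against control 9w, Decr1, the dienoyl-CoA reductase, rose by 2.42 (SE 0.44, adjusted p = 0.00170) and Ech1, a dienoyl-CoA isomerase, by 1.91 (SE 0.58, adjusted p = 0.0217), the latter lost without control 9w replicates 1, 2 and 3 or EMPA + PFD replicate 2.

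Electron transfer flavoprotein, made of the subunits Etfa and Etfb, takes electrons from the acyl-CoA dehydrogenases and hands them to its oxidoreductase, Etfdh. Etfdh had 582, 254 and 280.2 CPM in control 5w and 104, 127 and 215 in HFpEF. At week 9 it had 185, 184 and 209 CPM in control 9w, 545, 103 and 435 in untreated, 346 and 294 in EMPA, 529 and 636 in PFD and 660.5, 1014 and 902 in EMPA + PFD. Its log2 fold change was the largest of the step against untreated, 1.25 (SE 0.46, adjusted p = 0.0831), and it rose against control 9w by 2.16 (SE 0.48, adjusted p = 0.00438) on the log2 scale. Etfb had 505, 179 and 226 CPM in control 5w and 135, 295 and 356 in HFpEF. Its levels at week 9 were 453, 608 and 367 CPM in control 9w, 549, 212 and 561 in untreated, 592 and 369 in EMPA, 569.9 and 613 in PFD and 521, 583 and 564 in EMPA + PFD. Etfb was not called with the combination, at 0.33 (SE 0.43, adjusted p = 0.604) against untreated and 0.22 (SE 0.43) against control 9w, with overlapping libraries. Etfa, its partner, had 1.04 (SE 0.44) against untreated and rose by 1.76 (SE 0.45, adjusted p = 0.00878) against control 9w, so that the 2 subunits of 1 protein gave different estimates. That difference was not tested.

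In peroxisomes, Ehhadh, the bifunctional enzyme of the inducible pathway, had 12.3, 9.70 and 8.67 CPM in control 5w and 2.51, 9.08 and 6.61 in HFpEF. In week 9 hearts it had 13.6, 12.4 and 9.97 CPM in control 9w, 18.9, 7.88 and 8.96 in untreated, 13.6 and 6.07 in EMPA, 16.9 and 18.2 in PFD and 21.5, 32.4 and 41.4 in EMPA + PFD. The EMPA + PFD libraries were above all others. Ehhadh rose against untreated with 1.42 (SE 0.42, adjusted p = 0.0431), the largest of the step, a call lost without 11 of the 19 libraries in turn (control 5w replicates 2 and 3, HFpEF replicate 3, control 9w replicates 1 and 2, untreated replicates 2 and 3, PFD replicates 1 and 2, EMPA + PFD replicates 2 and 3). It was 1.19 without untreated replicate 2, and the call was also lost with the replicate block. Against EMPA it rose by 1.70 (SE 0.50, adjusted p = 0.0449) on the log2 scale, a call lost without 13 of the 19 libraries in turn (control 5w replicates 2 and 3, HFpEF replicate 3, control 9w replicates 1, 2 and 3, untreated replicate 3, EMPA replicates 1 and 2, PFD replicates 1 and 2, EMPA + PFD replicates 2 and 3). The rise against control 9w, 1.40 (SE 0.42, adjusted p = 0.0200), was lost without control 9w replicates 2 and 3 or EMPA + PFD replicates 2 and 3. Hsd17b4, the bifunctional enzyme for very long and branched chains, had 84.4, 91.5 and 93.1 CPM in control 9w, 208, 73.9 and 194 in untreated and 249, 315 and 304 in EMPA + PFD, and rose against control 9w by 1.69 (SE 0.29, adjusted p = 0.00115), which held without any 1 library.

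Acaa1a, the peroxisomal thiolase, had close levels in all groups: 32.0, 31.8 and 24.2 CPM in control 5w and 26.1, 33.8 and 30.5 in HFpEF. Week 9 levels were 28.7, 31.6 and 30.3 CPM in control 9w, 37.5, 30.6 and 35.1 in untreated, 35.7 and 33.2 in EMPA, 29.8 and 35.0 in PFD and 42.8, 37.9 and 39.9 in EMPA + PFD. The EMPA + PFD libraries were nonetheless above all others. Its log2 fold change was 0.23 (SE 0.13, adjusted p = 0.233) against untreated and 0.41 (SE 0.13, adjusted p = 0.0248) against control 9w, the smallest of the 26 called there and lost without control 9w replicates 1 and 3 or EMPA + PFD replicate 1. The near-identical Acaa1b had at most 4 counts in any library, and Acaa1a overlaps Myd88 in the GRCr8 gene table, so that the reads of these genes could have been split or shared.

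**Figure D3:**
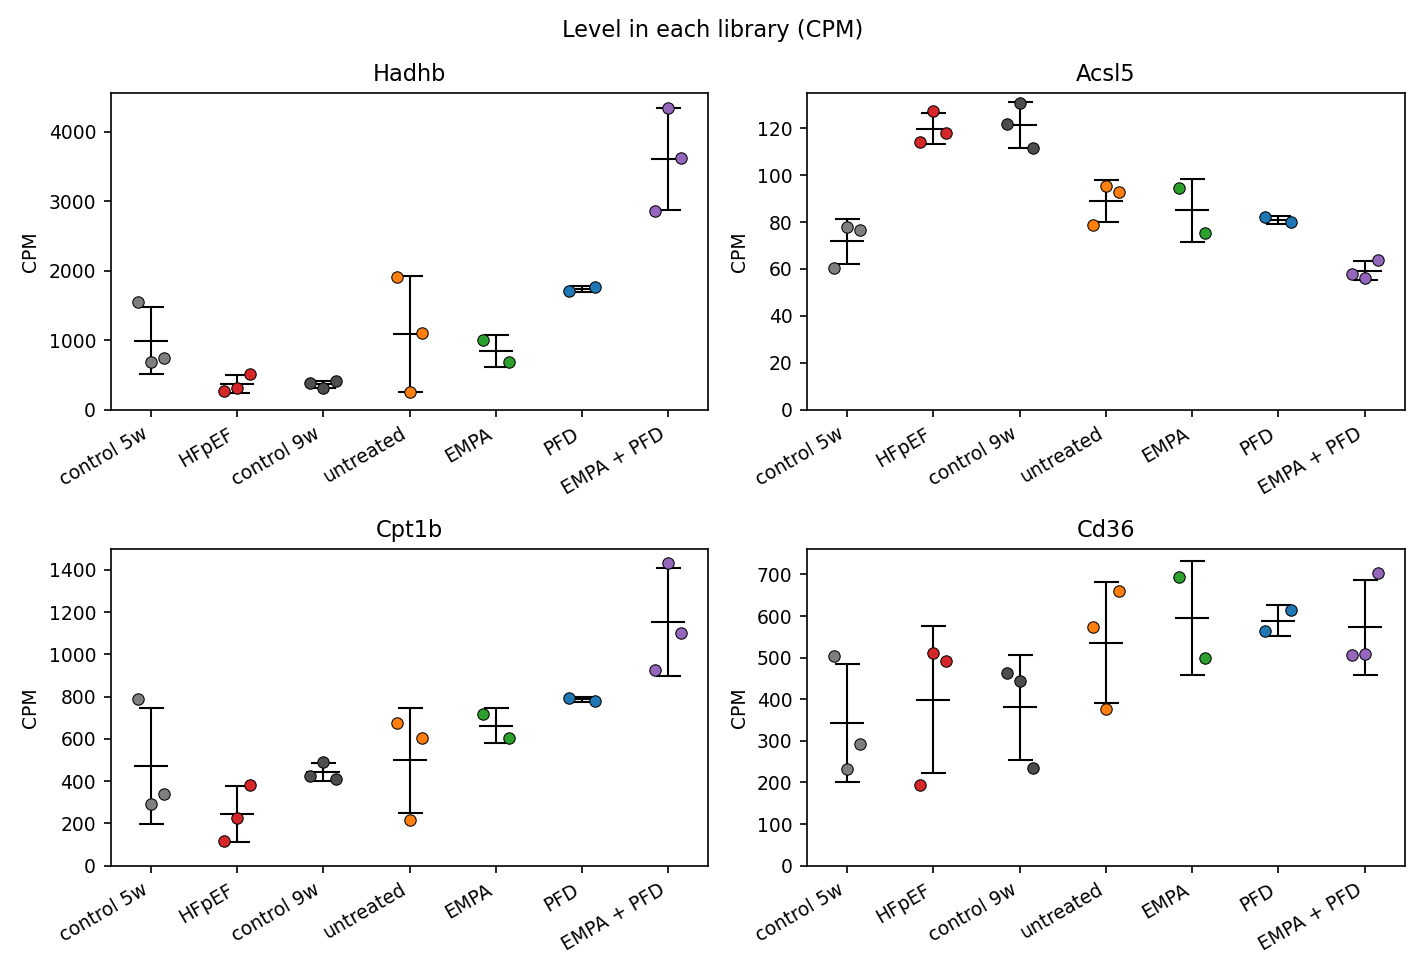
Level in CPM of Hadhb, Acsl5, Cpt1b and Cd36 in each of the 19 libraries, by group, on linear axes that start at 0. Points are libraries, the long bar is the group mean and the error bar the SD (n = 3, or 2 for EMPA and PFD). Hadhb and Cpt1b are highest in EMPA + PFD, Acsl5 is highest in HFpEF and control 9w, and the Cd36 libraries of untreated, EMPA, PFD and EMPA + PFD overlap.

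Among themselves the genes were closely tied. Across the 19 libraries, the log2 CPM of each gene was set against the mean of the other 34, as a description with no test, since the libraries share groups and cell content. Pearson's r was at least 0.9 for 20 genes, highest for Hadha (0.986), Mlycd (0.984) and Fabp3 (0.983), and from 0.7 to 0.9 for 11. It was 0.675 for Acacb and below 0 for 3 synthetases, at −0.54 for Acsl3, −0.68 for Acsl5 and −0.84 for Acsl4. Without untreated replicate 2 these were −0.49, −0.71 and −0.82. Over the 7 group means, a different measure, the highest r among 12261 other genes was 0.995, for Rchy1. As the maximum of so many values over 7 points, it does not show that genes outside the set followed it. By group means, 29 of the 35 genes were highest in EMPA + PFD and 22 were lowest in HFpEF. In the order of the mean log2 CPM over the genes, EMPA + PFD (8.86 ± 0.20, SD, n = 3) was followed by PFD (8.43 ± 0.13, n = 2), EMPA (7.92 ± 0.34, n = 2), untreated (7.72 ± 1.03, n = 3), control 5w (7.48 ± 0.64, n = 3), control 9w (7.39 ± 0.11, n = 3) and HFpEF (6.95 ± 0.58, n = 3). Every neighbour in this order differed by less than the larger of the SDs of the pair, except PFD from EMPA + PFD and from EMPA. Without untreated replicate 2 the untreated mean was 8.31 ± 0.208, without control 5w replicate 1 that of control 5w 7.11 ± 0.122 and without HFpEF replicate 1 that of HFpEF 7.27 ± 0.289, n = 2 each, so the places of untreated and of control 5w in this order rest on 1 library each.

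Other genes of fatty acid handling were read from a list of 100, of which 95 were analysed and 92 passed the expression filter. In EMPA + PFD against untreated 25 rose and 1 fell (median 0.49), where 6.6% and 5.52% of all tested genes did, and against control 9w 45 rose and 4 fell (median 0.66), where 17.1% and 16.6% did. In HFpEF against control 5w 12 rose and 17 fell (over all tested genes 9.83% and 10.2%), in untreated against control 9w 2 rose and 1 fell (0.589% and 1.19%), and in EMPA + PFD against EMPA 13 rose and 1 fell (5.3% and 4.42%). In control 9w against control 5w 18 rose and 20 fell (17.3% and 17.2%), and for the difference of the disease effects 17 were above and 12 below 0 (9.76% and 10.2%). The shares in control 9w against control 5w, the rises in HFpEF and the differences below 0 were near the background. For EMPA and PFD against untreated and EMPA + PFD against PFD edgeR called 0, with 5, 7 and 15 genes at an unadjusted p under 0.05 and 1, 0 and 2 called by DESeq2. Leaving out 1 library moved the rises against untreated to between 6 (without EMPA + PFD replicate 2) and 31 (without untreated replicate 1), with 7 without untreated replicate 2, 9 without EMPA + PFD replicate 3 and 10 without untreated replicate 3. The rises in untreated against control 9w became 10 without untreated replicate 2 and 0 without control 9w replicate 1 or 2 or untreated replicate 1. In EMPA + PFD against EMPA 1 rose without either EMPA library, 2 and 5 without EMPA + PFD replicates 2 and 3, 22 without EMPA + PFD replicate 1 or control 5w replicate 1 and 23 without untreated replicate 2. In HFpEF against control 5w 7 rose without control 5w replicate 2 or HFpEF replicate 2, and 11 fell without control 5w replicate 1 or HFpEF replicate 1 or 2. The falls in control 9w against control 5w were 12 and 10 without control 9w replicates 1 and 2, and those in EMPA + PFD against control 9w were 2 without control 9w replicate 2 or EMPA + PFD replicate 2 or 3 and 7 without control 9w replicate 3. For the difference of the disease effects 35 were above 0 without untreated replicate 2 and 7 below 0 without control 9w replicate 2. Counts of 1 fall in the other comparisons lay between 0 and 4, with 4 in untreated against control 9w without untreated replicate 2, and for EMPA against untreated 1 gene rose without HFpEF replicate 2.

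The numbers of other genes called depended on the model too. In EMPA + PFD against untreated there were 33 rises and 2 falls by DESeq2, 3 rises and 0 falls with the term for Eif2s3y and 0 rises and 0 falls in a fit of only the groups compared. In HFpEF against control 5w the term left 9 rises and 9 falls and only the groups compared 4 rises and 8 falls. Untreated against control 9w had 5 rises and 3 falls by DESeq2 and 0 with the term. For EMPA + PFD against EMPA there were 26 rises and 2 falls by DESeq2 and 7 rises and 0 falls with the replicate block. For the difference of the disease effects DESeq2 had 26 above and 13 below 0, and the term and only the groups compared left 13 and 14 above and 8 below. Shares of all tested genes in these fits are given above or below, and no cause was tested.

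The largest rises against untreated were those of Prkaa2, a catalytic subunit of AMP-activated kinase, Pdk4, the kinase that restrains pyruvate dehydrogenase, and the regulators Ppargc1a and Esrrb. Prkaa2 had 27.6, 5.44 and 14.1 CPM in untreated and 48.6, 88.5 and 81.8 in EMPA + PFD, a log2 fold change of 2.22 (SE 0.41, adjusted p = 0.00915). Pdk4 had 413, 124 and 346 and 443, 1791 and 1673 CPM, a log2 fold change of 2.14 (SE 0.60, adjusted p = 0.0349). Ppargc1a, the PPARγ coactivator that drives mitochondrial genes, had 25.5, 10.4 and 17.7 and 36.1, 94.0 and 90.3 CPM, a log2 fold change of 2.04 (SE 0.37, adjusted p = 0.00883). In all 3 genes the groups did not overlap, and EMPA + PFD replicate 1 was lower than replicates 2 and 3. Esrrb, an orphan receptor, rose by 2.01 (SE 0.46, adjusted p = 0.0183) on the log2 scale. None of these 4 rises was called with the term for Eif2s3y, at 2.56, 3.92, 2.05 and 1.20 for Prkaa2, Pdk4, Ppargc1a and Esrrb, or in a fit of only the groups compared, at 2.21, 2.13, 2.03 and 2.00, and only that of Esrrb with the term was far smaller. The calls of Prkaa2 and Ppargc1a were kept without any 1 library in the fit of all groups, that of Esrrb was lost without untreated replicate 2 or EMPA + PFD replicates 2 and 3, and that of Pdk4 without untreated replicates 2 and 3 or EMPA + PFD replicates 2 and 3. Fasn, fatty acid synthase, was the 1 gene that fell, with −0.74 (SE 0.22, adjusted p = 0.0433), a call lost without 13 of the 19 libraries in turn (control 5w replicates 2 and 3, control 9w replicates 1, 2 and 3, untreated replicates 2 and 3, EMPA replicates 1 and 2, PFD replicates 1 and 2, EMPA + PFD replicates 2 and 3) and with the replicate block, the term for Eif2s3y or only the groups compared.

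At week 5 the largest falls in HFpEF were those of Esrrb, with −3.05 (SE 0.50, adjusted p = 0.00178), Prkaa2, with −2.95 (SE 0.43, adjusted p = 0.000944), Ppara, with −2.17 (SE 0.39, adjusted p = 0.00283), and Esrrg, with −2.03 (SE 0.31, adjusted p = 0.00127), all on the log2 scale. Ppara, the nuclear receptor that senses fatty acids, had 38.8, 16.5 and 14.8 CPM in control 5w and 3.30, 5.32 and 6.97 in HFpEF. The largest rises were those of Angptl4, an inhibitor of lipoprotein lipase, with 5.36 (SE 0.44, adjusted p = 5.04e-05), Lipe, hormone-sensitive lipase, with 1.92 (SE 0.34, adjusted p = 0.00263), Gpihbp1, which anchors lipoprotein lipase on capillaries, with 1.89 (SE 0.38, adjusted p = 0.00564), and Fabp4, a fatty acid binding protein, with 1.42 (SE 0.45, adjusted p = 0.0379). Angptl4 had 1.22, 1.32 and 0.955 CPM in control 5w and 71.3, 23.7 and 49.8 in HFpEF. Gpihbp1 and Fabp4 are expressed in endothelial cells, of whose markers 7 of 12 rose there, or 4 without control 5w replicate 2 or 3 or HFpEF replicate 2. The part of these cells in the rises of the 2 genes was not tested. Of these 8 calls that of Fabp4 was lost without control 5w replicates 2 and 3, HFpEF replicates 2 and 3 or control 9w replicate 1, and the others were kept without any 1 library. With only the groups compared the calls of Ppara, Gpihbp1 and Fabp4 were lost, at log2 fold changes of −2.17, 1.89 and 1.44, and that of Fabp4 also with the replicate block, at 1.42. The other 5 were kept in every fit that tested them, which for Esrrb leaves out the filter of at least 10 counts in every library.

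In untreated against control 9w, 3 genes of the list were called. Acbd4, a peroxisomal acyl-CoA binding protein, rose from 27.3, 25.7 and 28.3 to 46.3, 43.7 and 42.4 CPM, a log2 fold change of 0.70 (SE 0.12, adjusted p = 0.0169). Pex11a, a peroxisome division factor, fell from 39.8, 44.6 and 28.5 to 10.4, 6.25 and 8.64 CPM, a log2 fold change of −2.16 (SE 0.42, adjusted p = 0.0247). Slc27a2, a very long chain synthetase best known from liver, had 0 counts in every control 9w library and 39 to 63 in untreated, at least 15.3-fold higher if control 9w is set at 3 counts per library (adjusted p = 0.0199). All 3 calls were lost with the term for Eif2s3y, at 0.89 and −1.25 for Acbd4 and Pex11a (no fold is given for Slc27a2, with its 0 counts), where 0% and 0.0161% of all tested genes rose and fell. They were lost without control 9w replicate 1 or 2 or untreated replicate 1, and that of Pex11a also without untreated replicate 3.

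The remaining marker lists are given for EMPA + PFD against control 9w. Of the 10 comparisons tested, it had the most calls among the fatty acid genes. Endothelial markers (12 genes, Eng the most abundant) summed to 6233, 6550.1 and 5472 CPM in control 9w and 3343, 2982 and 2970.4 in EMPA + PFD, and 2322 to 6550.1 over all libraries. Of 11 smooth muscle and pericyte markers 2 rose, of 14 tested leukocyte markers 1 rose, of 6 tested erythroid markers 4 fell, of 6 tested skeletal muscle markers 1 fell, of 7 Schwann cell markers 1 fell and of 5 tested adipocyte markers 0 were called by edgeR or DESeq2, with 0 at an unadjusted p under 0.05. The smooth muscle rises were 1 without any control 9w library or EMPA + PFD replicate 1 or 2, the leukocyte rise was lost without control 9w replicate 3, where 1 adipocyte marker rose, and the skeletal muscle fall was lost without control 9w replicate 1 or 2 or EMPA + PFD replicate 2 or 3. An erythroid marker rose without HFpEF replicate 3, untreated replicate 2 or either PFD library. The part of these cells in the levels of the fatty acid genes was not tested.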

How the data were processed

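RNA-seq of rat left ventricle, 19 libraries in 7 groups, was analysed from the counts of reads on each gene symbol. The authors made these counts before they were deposited by trimming with Trim Galore, checking with FastQC, aligning to rn6 with HISAT2 and counting with htseq-count. The annotation, strand setting and overlap mode of the counting are not given. Counts were scaled by TMM, filtered by filterByExpr and tested with the quasi-likelihood F test of edgeR 4.0.16 (R 4.3.3, limma 3.58.1) in 1 model of all 7 groups, with Benjamini-Hochberg adjustment over 12388 genes. The biological coefficient of variation was 0.257. Calls needed an adjusted p under 0.05, and at least 2-fold where stated. Log2 CPM used a prior count of 2. The test was also run on simulated data with 200 changed genes, and no result of that run is used here. Tables were made with Python 3.11.15 and pandas 2.3.3.

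Values in every library are given for the gene with the largest and the gene with the smallest absolute log2 fold change of each step in EMPA + PFD against untreated, for genes called against the direction of most called genes, and for Cpt1b and Cd36. Other fatty acid genes named are the 4 largest rises and falls called in EMPA + PFD against untreated and in HFpEF against control 5w, and all called in a comparison with 5 or fewer calls. Hadhb, Slc27a1 and other genes given with values outside this rule were chosen after their values were seen. The 35 genes and the lists were chosen with earlier results of these data known.

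Alternatives were upper quartile and relative log expression scaling, no filter beyond 1 count, at least 10 counts in every library, DESeq2 1.42.0, only the groups compared, a fold threshold, the replicate block, a term for Eif2s3y, prior counts of 0.5 and 5 and the omission of each library. Start regions and gene overlaps came from RefSeq on GRCr8, a build other than that of the counts.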

Additional observations from a re-analysis of the deposited data

Results flagged for a closer look

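The disease effect was measured at both time points, as HFpEF against control 5w and as untreated against control 9w, and a test of the difference called 7 of the 35 genes, 6 above and 1 below 0, where 9.76% and 10.2% of all tested genes were above and below 0, so that the number called is near the background. On the log2 scale, week 9 minus week 5, it was 3.61 for Hadh, 3.01 for Hadhb, 2.45 for Crat, 2.24 for Echs1, 2.23 for Etfdh, 1.25 for Hsd17b4 and −1.19 for Acsl5. The calls of Hadh, Hadhb and Acsl5 were kept without any 1 library, and were the 3 left with a term for Eif2s3y counts (6.94% and 8.36% of all tested genes above and below 0) and in a fit of only the groups compared (6.44% and 6.62%). The untreated libraries lacked Eif2s3y counts and the control 9w libraries had them, and control 9w and untreated had RT1-CE16 counts that control 5w and HFpEF nearly lacked, so that disease, time and these differences between animals cannot be told apart. In the same test the median difference was 1.62 over 19 cardiomyocyte markers, with 6 called above and 1 below 0, against 1.12 over the 35 genes, and 6 of 12 endothelial and 5 of 6 erythroid markers were called below 0. No cause was tested.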

How the results depend on the processing

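The number of the 35 genes called by edgeR, in both directions together, was 2 for HFpEF vs control 5w, 0 for untreated vs control 9w, 4 for EMPA + PFD vs untreated, 4 for control 9w vs control 5w, 26 for EMPA + PFD vs control 9w, 5 for EMPA + PFD vs EMPA and 7 for the disease effect at week 9 minus week 5. Upper quartile and relative log expression scaling and the filter of at least 10 counts in every library kept each of these counts within 1.5 times.

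In brackets are the shares of all tested genes that rose and fell in the same fit. DESeq2 called 5 in HFpEF vs control 5w (12.8% and 13.3%), 6 in untreated vs control 9w (2.21% and 4.44%), 15 in EMPA + PFD vs untreated (11.8% and 9.05%), 10 in EMPA + PFD vs EMPA (10.2% and 6.96%) and 12 for the disease effect at week 9 minus week 5 (12.5% and 13.4%). Requiring at least 2-fold as well left 1 in HFpEF vs control 5w (4.28% and 4.41%), 2 in EMPA + PFD vs untreated (2.34% and 1.48%) and 2 in control 9w vs control 5w (7.46% and 7.21%). With no filter beyond 1 count there were 2 in EMPA + PFD vs untreated (3.8% and 4.05%) and 3 in EMPA + PFD vs EMPA (3.16% and 2.52%).

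The replicate block gave 1 in HFpEF vs control 5w (8.29% and 8.72%), 2 in EMPA + PFD vs untreated (5.06% and 3.78%), 0 in EMPA + PFD vs EMPA (2.12% and 1.36%) and 4 for the disease effect at week 9 minus week 5 (8.06% and 8.56%). The term for Eif2s3y gave 1 in HFpEF vs control 5w (5.68% and 5.13%), 0 in EMPA + PFD vs untreated (1.67% and 2.32%) and 3 for the disease effect at week 9 minus week 5 (6.94% and 8.36%). Only the groups compared gave 1 in HFpEF vs control 5w (2.7% and 3.31%), 0 in EMPA + PFD vs untreated (0.0348% and 0.00869%), 17 in EMPA + PFD vs EMPA (7.39% and 3.6%) and 3 for the disease effect at week 9 minus week 5 (6.44% and 6.62%). The cause was not tested.

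Leaving out 1 library gave 1 (without control 5w replicate 1) to 8 calls (without untreated replicate 2) in HFpEF vs control 5w and 0 to 15 (without untreated replicate 2) in untreated vs control 9w. It gave 0 (without untreated replicate 2) to 13 (without untreated replicate 1) in EMPA + PFD vs untreated, 2 (without control 9w replicate 1) to 10 (without untreated replicate 2) in control 9w vs control 5w and 15 (without control 9w replicate 3) to 27 (without control 5w replicate 1) in EMPA + PFD vs control 9w. It gave 0 (without EMPA replicate 1) to 13 (without untreated replicate 2) in EMPA + PFD vs EMPA and 3 (without control 5w replicate 1) to 19 (without untreated replicate 2) for the disease effect at week 9 minus week 5. Without untreated replicate 2, 11.5% and 13.8% of all tested genes rose and fell in HFpEF vs control 5w. That fit had 4.33% and 3.9% in untreated vs control 9w and 18.6% and 19.8% in control 9w vs control 5w. It had 9.43% and 6.79% in EMPA + PFD vs EMPA, and 15.9% and 14.0% for the disease effect at week 9 minus week 5. A lone EMPA or PFD library was assumed to vary like the other groups.

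In EMPA + PFD vs untreated, Cd36 reversed to −0.48 with the term for Eif2s3y, to −0.105 without untreated replicate 2 and to −0.06 without EMPA + PFD replicate 3, and was at most 0.29 without untreated replicate 3. Acot13 reversed to −0.24 with the term and −0.17 without untreated replicate 2, and was at most 0.51 without untreated replicate 1. Acaa1a reversed to −0.032 with the term. None of these was called. Over the values of named genes, 588 kept direction and side of the threshold, 53 were no longer called and 14 became called.

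The replicate numbers were not taken as pairs, and correlations of deviations from group means ran from −0.532 to 0.493 (median −0.0666) in 52 pairs with the same number and from −0.509 to 0.535 (median 0.0377) in 102 others. The lowest counts, 33 for Acsl6, 35 for Ehhadh and 43 for Echs1, carry the most counting error, and the groups of 2 the least certain means.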
